A study of Mus musculus with 11 samples.

Results

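The major histocompatibility complex (MHC) genes of mouse distal colon were followed across 11 mice. The set was every gene whose symbol began with H2-, together with B2m, Cd74 and Ciita, which gave 40 of the 22243 genes in the deposited table. They comprised 2 classical class I heavy chains, the class I light chain B2m, 25 non-classical class I genes, 4 class II chain genes, 5 genes of the class II peptide-loading proteins, Cd74, Ciita, and H2-Ke6, which belongs by name only. All H2- genes lay on chromosome 17 of mm10, B2m on chromosome 2, Ciita on chromosome 16 and Cd74 on chromosome 18.

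Polyadenylated RNA was measured in full-thickness distal colon, which holds epithelium, lamina propria, muscle and any lymphoid tissue in the piece. The WT group held 6 mice and the Nrg4 KO group 5 mice homozygous for a mutation of Nrg4 (Nrg4-/-), which encodes the ErbB4 ligand neuregulin 4. Mice of both genotypes were dissected at 11 to 12 weeks of age and had shared cages from 9 weeks. There were 2 mice of each genotype in cage A and again in cage B. Cage C had a single KO mouse, KO-3, beside 2 WT mice, so no spread can be given for its KO arm. Males and females were both used, without a sex given per mouse, and neither the strain nor the construction of the allele is stated in the labels. Mice are named by genotype and label number, such as WT-2 or KO-3.

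Levels are in TPM, which corrects an abundance for transcript length and for the size of the library, and transcripts of a gene were summed. A gene was tested with limma where 5 or more mice reached 1 TPM, which left 10756 genes and 19 of the 40 MHC genes. Nrg4 itself was listed at 0 in all 11 mice, WT included, so it could not check the genotype labels. Epithelial markers were present in every mouse, at levels that differed by marker, with Epcam between 832 and 1156 TPM and Cdx2 between 5.13 and 23.6 TPM. KO-3 stood apart in its mitochondrially encoded RNA, at 42.9% of its summed TPM, against at most 31.4% in any other mouse. TPM keeps no read depth, so no counting interval is given.

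Class I molecules carry peptides from inside the cell to CD8 T cells. Each pairs a heavy chain with the light chain B2m, and nearly all nucleated cells make them. Class II molecules pair an alpha and a beta chain, carry peptides from endocytosed material to CD4 T cells, and are made mainly by B cells, dendritic cells and macrophages, and by gut epithelium when interferon gamma induces them. Class II genes are switched on together by the transactivator Ciita, which acts through a conserved promoter module that includes the Y box.

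Among the classical heavy chains, H2-K1 was the most abundant MHC gene after B2m in some mice and above it in others. Its lowest, median and highest values in WT were 469.9, 567 and 691 TPM. In KO it was at 544 TPM in KO-1, 750 in KO-3, 493 in KO-4, 485 in KO-8 and 574 in KO-9. The highest mouse, KO-3, lay above every WT mouse, while the other 4 KO mice lay within the WT range. The means were 564 ± 75.8 TPM (SD, n = 6) in WT and 569 ± 107 TPM (SD, n = 5) in KO. On the log2(TPM + 0.5) scale, the fitted difference of KO against WT was 0.02 ± 0.13 (SE), with a 95% interval from -0.27 to 0.32. These values come from bulk tissue, where fewer cells of a type and less RNA per cell cannot be told apart.

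H2-D1, the other classical heavy chain, was at 298, 356 and 419 TPM for the lowest, median and highest WT mouse. The KO values were 370.4 TPM in KO-1, 404 in KO-3, 318 in KO-4, 356 in KO-8 and 370.1 in KO-9. All KO values lay inside the WT range. The highest mouse stood 1.41-fold above the lowest, and the spread of H2-D1 over the 11 mice was at percentile 11.2 of all genes tested. The genotype difference in log2 was 0.04 ± 0.10 (SE). H2-K1 and H2-D1 together made up between 74.8% and 80.0% of the summed TPM of class I heavy chains, the non-classical genes included.

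B2m, the light chain shared by class I molecules, ranged more widely than the classical heavy chains. Its lowest, median and highest values in WT were 311, 471 and 639 TPM. In KO it was at 422 TPM in KO-1, 848 in KO-3, 411 in KO-4, 445 in KO-8 and 453 in KO-9. KO-3 stood above all other mice, and the remaining KO mice lay within the WT range. The genotype difference in log2 was 0.15 ± 0.21 (SE), and it was -0.13 when KO-3 was left out. The ratio of B2m to summed class I heavy chains was 0.269 in WT-7, the lowest, and 0.587 in KO-3, the highest.

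**Figure D1:**
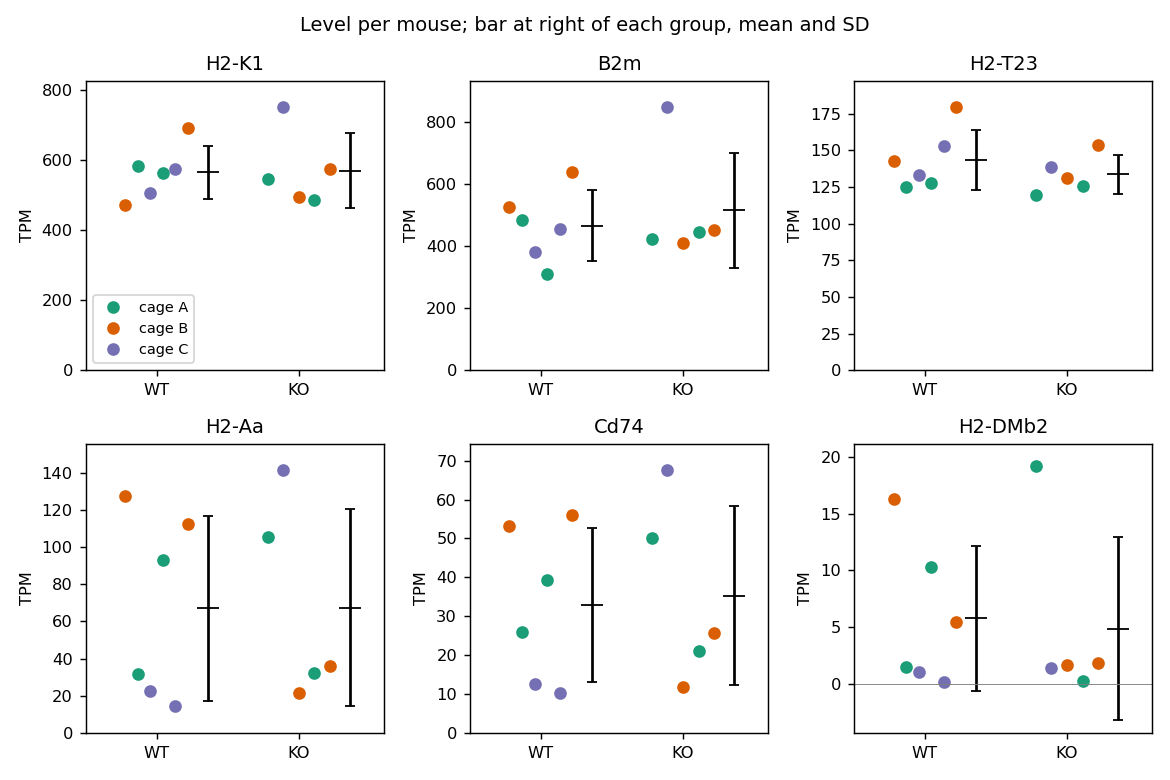
Level in TPM (vertical axis, linear) of 6 MHC genes in each WT and KO mouse (horizontal axis), with points coloured by cage and bars giving the mean and SD. WT and KO points overlapped for each of the 6 genes, and KO-3 (cage C) was the highest point for H2-K1, B2m, H2-Aa and Cd74.

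Of the 25 non-classical class I genes, 9 passed the filter and 16 did not. H2-T23, which encodes Qa-1, the ligand of the NKG2A receptor, was the most abundant of them. It was at 125, 138 and 179 TPM for the lowest, median and highest WT mouse, and at 119 TPM in KO-1, 139 in KO-3, 131 in KO-4, 126 in KO-8 and 154 in KO-9. The genotypes overlapped, with 1 KO mouse below the WT range, and the log2 difference was -0.09 ± 0.08 (SE). H2-T22, a ligand of gamma delta T cell receptors, averaged 40.2 ± 3.98 TPM (SD, n = 6) in WT and 41.3 ± 5.73 TPM (SD, n = 5) in KO.

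H2-Q2 averaged 32.0 ± 4.67 TPM in WT and 28.1 ± 5.67 TPM in KO (SD). H2-Q4 averaged 28.4 ± 3.92 TPM in WT and 28.0 ± 6.31 TPM in KO. H2-M3, which presents N-formylated peptides, averaged 6.28 ± 1.05 TPM in WT and 6.35 ± 1.04 TPM in KO. H2-Q10, known as a secreted class I protein of liver, averaged 1.96 ± 0.591 TPM in WT and 1.72 ± 0.577 TPM in KO. For all 4 genes the difference between the means was smaller than the SD of either group.

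H2-Q6 and H2-Q7 encode the glycolipid-anchored Qa-2 antigens and varied far more between mice. H2-Q6 was at 1.56, 4.89 and 11.5 TPM for the lowest, median and highest WT mouse, and at 20.2 TPM in KO-1, 13.6 in KO-3, 2.83 in KO-4, 3.72 in KO-8 and 3.72 in KO-9. KO-1 and KO-3 exceeded every WT mouse, and the other KO mice lay inside the WT range. H2-Q7 ranged from 0 to 3.23 TPM in WT and from 0.617 to 6.01 TPM in KO. H2-Q1 ranged from 0 to 3.56 TPM in WT and from 1.37 to 6.03 TPM in KO. Their log2 differences were 0.33 ± 0.62 for H2-Q6, 0.87 ± 0.66 for H2-Q7 and 0.70 ± 0.52 for H2-Q1 (SE), each with a 95% interval that included 0. Without KO-3 the difference was -0.41 for H2-Q6, 0.12 for H2-Q7 and 0.18 for H2-Q1.

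The promoters of H2-K1 and H2-Q6 are shown because one belongs to a steady and the other to a variable class I gene. They are bases upstream of the start site from RefSeq (GRCm38.p6), on the coding strand. H2-K1 is at chr17:34000348-34000537 (minus strand) and H2-Q6 at chr17:35424660-35424849 (plus strand). Capitals mark, from the left, the enhancer A motif, a stretch of the interferon response element and, in H2-Q6, the Y box as CCAATCA, the reverse complement of TGATTGG.
H2-K1: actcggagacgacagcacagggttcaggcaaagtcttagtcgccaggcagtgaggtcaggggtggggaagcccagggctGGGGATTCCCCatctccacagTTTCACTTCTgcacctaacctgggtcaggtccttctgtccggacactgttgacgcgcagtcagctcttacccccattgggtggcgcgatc
H2-Q6: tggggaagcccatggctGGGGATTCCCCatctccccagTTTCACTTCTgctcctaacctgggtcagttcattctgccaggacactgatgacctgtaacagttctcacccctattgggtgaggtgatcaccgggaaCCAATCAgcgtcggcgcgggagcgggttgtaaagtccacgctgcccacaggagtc

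The capitals are the letters searched for, on both strands, and no motif overlapped another in these promoters. Both promoters held enhancer A and the interferon response stretch, each on the coding strand. In the 250 bases upstream of the start site, on either strand, enhancer A was present in 0.0304% of 32851 mouse promoter windows and the interferon response stretch in 0.131%. Of the MHC genes, 31 had a RefSeq promoter that was searched. Cd74 was not among them because its chromosome was left out of the search. H2-Ab1, H2-Ea-ps, Ciita, H2-Bl, H2-Q1, H2-Q5, H2-T10 and H2-T24 were not among them either. Enhancer A was found in 2 of 2 classical genes and 1 of 20 non-classical genes. The interferon response stretch was found in 2 of 2 classical and 5 of 20 non-classical genes, H2-M3, H2-Q10, H2-Q4, H2-Q6 and H2-Q7. On either strand, the Y box was found in 1 of 2 classical genes, H2-D1, and in 13 of 20 non-classical genes. A match is a description of letters and not of binding.

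The 16 non-classical genes below the filter were scarce. H2-M2, H2-Q5, H2-T10 and H2-T24 reached 1 TPM in 2 to 4 mice, with highest values of 1.89, 2.62, 1.51 and 1.24 TPM. H2-T3, which encodes the thymus leukemia antigen of intestinal epithelium, was listed at 0 in 9 of 11 mice and reached 0.522 TPM. H2-M10.3 and H2-M10.6 were above 0 in 1 mouse each. H2-Bl, H2-M1, H2-M10.1, H2-M10.2, H2-M10.4, H2-M10.5, H2-M11, H2-M5 and H2-M9 were listed at 0 in all mice.

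The class II chains differed between mice of the same genotype more than between genotypes. H2-Aa, the alpha chain of the I-A molecule, was at 14.4, 62.3 and 128 TPM for the lowest, median and highest WT mouse. In KO it was at 106 TPM in KO-1, 141 in KO-3, 21.6 in KO-4, 32.4 in KO-8 and 35.8 in KO-9. WT-2, WT-7, WT-11, KO-1 and KO-3 were high and the other 6 mice low, so both genotypes held high and low mice. The means were 67.0 ± 49.9 TPM (SD, n = 6) in WT and 67.4 ± 53.1 TPM (SD, n = 5) in KO. The log2 difference was -0.01 ± 0.71 (SE), with a 95% interval from -1.58 to 1.57, so the data do not exclude a sizeable difference in either direction. Without KO-3 it was -0.99.

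H2-Ab1, the I-A beta chain, was at 13.0, 68.7 and 112 TPM for the lowest, median and highest WT mouse. In KO it was at 102 TPM in KO-1, 119 in KO-3, 26.0 in KO-4, 38.5 in KO-8 and 37.0 in KO-9. The same 5 mice were high as for H2-Aa. The log2 difference was 0.06 ± 0.63 (SE), and -0.88 without KO-3. The ratio of H2-Aa to H2-Ab1 stayed between 0.755 and 1.19 while their sum varied from 27.4 TPM in WT-10 to 261 TPM in KO-3. No mouse had a sum between 73.5 and 191 TPM, a gap that covered 42.6% of the log2 range.

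H2-Eb2, a beta chain gene of the I-E family, was below the filter and reached 2.82 TPM in WT-2, 2.92 in WT-7 and 1.83 in KO-1. It was under 1 TPM in the other 8 mice. H2-Ea-ps, the I-E alpha chain locus, annotated as a polymorphic pseudogene, was listed at 0 in all mice.

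Cd74, the invariant chain that guards the class II groove, was at 10.2, 32.6 and 56.1 TPM for the lowest, median and highest WT mouse. In KO it was at 50.2 TPM in KO-1, 67.6 in KO-3, 11.7 in KO-4, 21.0 in KO-8 and 25.8 in KO-9. Its 5 highest mice were those of H2-Aa, and the log2 difference was 0.03 ± 0.57 (SE). Ciita was below the filter, between 0.127 and 2.75 TPM in WT, and at 2.15 TPM in KO-1, 0.718 in KO-3, 0.325 in KO-4, 0.0723 in KO-8 and 0.144 in KO-9. Ciita had the same 5 highest mice as H2-Aa. Within them KO-3, the highest for H2-Aa, was below WT-2, WT-7 and KO-1 for Ciita and above WT-11, which was at 0.648 TPM.

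The DM proteins exchange peptides on class II molecules, and the DO proteins, known mainly from B cells, restrain DM. H2-DMa was at 1.51, 5.30 and 11.1 TPM for the lowest, median and highest WT mouse. In KO it was at 10.7 TPM in KO-1, 11.9 in KO-3, 2.74 in KO-4, 2.95 in KO-8 and 3.22 in KO-9. H2-DMb1 was at 1.80, 5.02 and 11.0 TPM in WT, and at 6.59 TPM in KO-1, 14.7 in KO-3, 3.85 in KO-4, 2.92 in KO-8 and 3.22 in KO-9. Both followed the class II chains, with the same 5 mice highest, and both had a log2 difference of 0.03, with SE 0.55 for H2-DMa and 0.50 for H2-DMb1.

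H2-DMb2, H2-Oa and H2-Ob showed another order of mice. H2-DMb2 was at 0.198, 3.44 and 16.3 TPM for the lowest, median and highest WT mouse, and at 19.2 TPM in KO-1, 1.37 in KO-3, 1.62 in KO-4, 0.268 in KO-8 and 1.80 in KO-9. H2-Oa was at 7.93 TPM in KO-1 and 0.809 in KO-3, and its highest WT value was 6.71 TPM in WT-2. H2-Ob was at 8.61 TPM in KO-1 and 0.213 in KO-3, and its highest WT value was 6.95 TPM in WT-2. WT-2, WT-7, WT-11 and KO-1 were the 4 highest mice for each, while KO-3 was low. Per 100 TPM of H2-Aa, H2-DMb2 was 18.2 in KO-1, 12.8 in WT-2, 11.1 in WT-7 and 0.972 in KO-3. H2-DMb2 had a log2 difference of -0.70 ± 0.87 (SE), and it was -1.43 when KO-1 was left out and -0.09 when KO-8 was. H2-Oa and H2-Ob were below the filter.

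**Figure D2:**
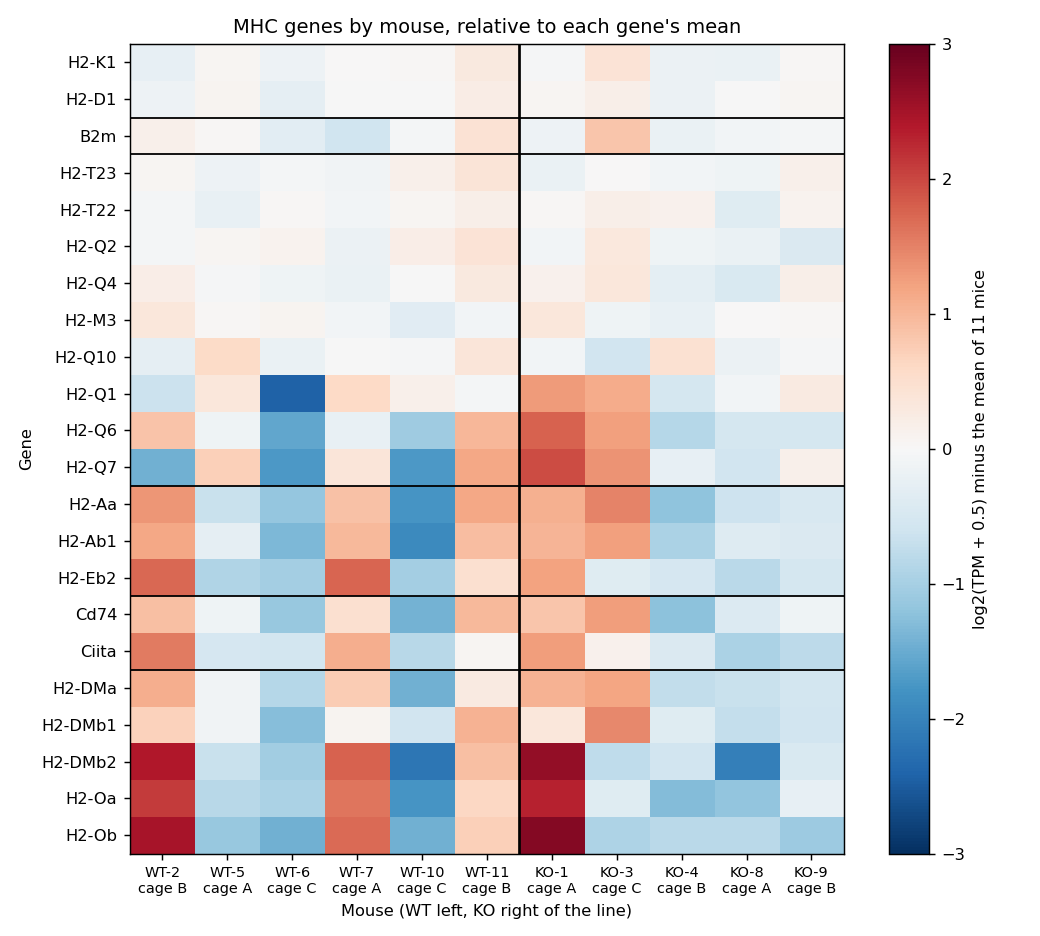
Each cell gives log2(TPM + 0.5) of an MHC gene in a mouse (columns, WT left and KO right of the line) minus the gene's mean over 11 mice, in the order classical class I, B2m, non-classical class I, class II chains, Cd74 and Ciita, DM and DO. WT-2, WT-7, WT-11 and KO-1 were above the mean for each class II gene, and KO-3 was high for H2-Aa, H2-Ab1, Cd74, H2-DMa and H2-DMb1 but not for H2-DMb2, H2-Oa or H2-Ob.

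Of the 10 class II genes above 0 in any mouse, 7 shared their 5 highest mice (H2-Aa included) and the other 3 shared 4 of them. Among genes that passed the filter these were 5 of 6 class II genes, H2-Aa included by construction. The background is 0.483% of all genes tested with the same 5 highest mice as H2-Aa. Over the 11 mice, the SD of log2(TPM + 0.5) was 1.19 for H2-Aa, at percentile 97.4 of genes tested, 1.11 for H2-Ab1, at percentile 96.8, and 0.21 for H2-K1, at percentile 31.8. The median SD was 1.04 for the 6 class II genes tested and 0.27 for all genes tested. Of the 19 MHC genes, 9 lay above the 90th percentile, namely the 6 class II genes with H2-Q1, H2-Q6 and H2-Q7, and 8 lay below the 50th. The percentile takes no account of level. H2-Q1 and H2-Q7 had a lowest value of 0 TPM and H2-DMb2 of 0.198 TPM, so part of their spread lies near the floor.

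Promoters of 3 class II genes are shown for this shared pattern, 1 from a class II chain with high levels, 1 from a chain at low levels and 1 from a DO chain that KO-3 did not share. They are RefSeq upstream bases (GRCm38.p6) on the coding strand, H2-Aa at chr17:34287824-34288013 (minus strand), H2-Eb2 at chr17:34325475-34325664 (plus strand) and H2-Ob at chr17:34238713-34238902 (plus strand). Capitals mark the Y box TGATTGG.
H2-Aa: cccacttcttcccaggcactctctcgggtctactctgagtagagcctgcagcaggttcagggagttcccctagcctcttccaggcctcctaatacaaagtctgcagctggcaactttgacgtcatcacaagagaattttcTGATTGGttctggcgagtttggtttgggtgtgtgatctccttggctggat
H2-Eb2: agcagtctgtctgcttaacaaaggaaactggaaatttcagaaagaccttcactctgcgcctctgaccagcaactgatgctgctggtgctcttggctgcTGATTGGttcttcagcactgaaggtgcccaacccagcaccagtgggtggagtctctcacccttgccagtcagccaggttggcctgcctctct
H2-Ob: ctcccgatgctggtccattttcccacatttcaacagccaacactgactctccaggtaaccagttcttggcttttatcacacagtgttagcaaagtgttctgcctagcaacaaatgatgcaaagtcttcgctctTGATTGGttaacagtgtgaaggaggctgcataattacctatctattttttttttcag

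The Y box began 50 bases before the start site in H2-Aa, 102 bases before it in H2-Eb2 and 59 bases before it in H2-Ob. These distances are from the start site and not from the end of the printed bases. The printed bases end 1 base before the start site in H2-Aa, 11 in H2-Eb2 and 3 in H2-Ob. On the coding strand it was found in 2 of 2 class II chain promoters searched, those of H2-Aa and H2-Eb2. The promoters of H2-Ab1 and H2-Ea-ps were not searched. The Y box was also found in 4 of 5 DM and DO promoters, H2-DMa being the exception. The background on that strand was 3.64% of all 32851 windows. On either strand, 7.23% of all windows and 13 of 20 non-classical class I promoters held it. The letters were thus present both in genes that were high in KO-3 and in H2-Ob, which was low there.

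Markers of immune cells were summed for each mouse beside the class II genes. The 9 B cell markers summed to 57.3 TPM in WT-2, 49.1 in WT-7, 21.2 in WT-11 and 98.7 in KO-1, and to between 1.37 and 4.63 TPM in the other 7 mice. KO-3, the mouse with the most H2-Aa, was among the latter at 3.61 TPM. The 9 T cell markers summed to 88.0 TPM in KO-1 and 36.4 in WT-11, and to between 1.80 and 11.6 TPM elsewhere. The 10 macrophage markers summed to between 28.3 and 69.4 TPM, with KO-3 at 36.1. The 9 dendritic cell markers summed to between 0.701 and 8.47 TPM, and to 1.41 TPM in KO-3. The part of these cells in the class II differences was not tested.

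**Figure D3:**
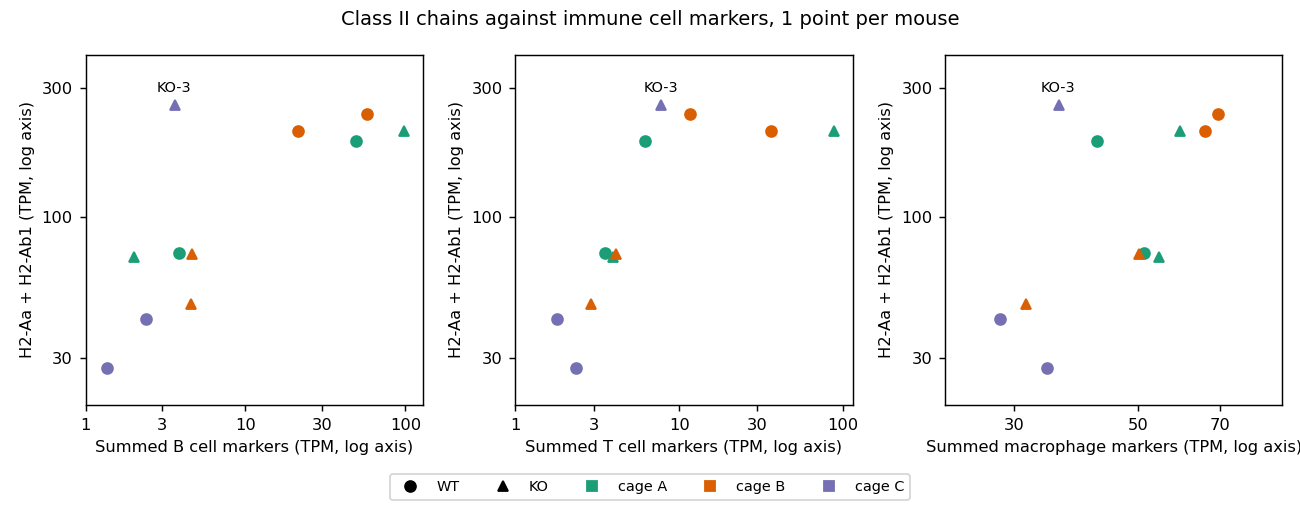
Summed H2-Aa and H2-Ab1 (vertical axis, TPM, log scale) against summed B cell, T cell and macrophage markers (horizontal axes, TPM, log scale), 1 point per mouse, with shape for genotype and colour for cage. WT-2, WT-7, WT-11 and KO-1 were high for both class II and B cell markers, and KO-3 had the highest class II sum at 3.61 TPM of B cell markers.

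No MHC gene was called for genotype. With limma at a false discovery rate (FDR) of 0.05, 0 of the 19 genes passed, against a background of 0.0372% of the 10756 genes (4 genes). At an unadjusted p under 0.05 the counts were 0 of 19, against a background of 3.1%. The smallest unadjusted limma p was 0.212, for H2-Q1. Fitted values were higher in KO for 11 genes and lower for 8, and 46.8% of all genes were higher. The median log2 difference was 0.03 for the 19 genes and -0.01 for all genes tested. KO and WT values overlapped for each of the 19 genes, and 0.223% of all genes tested had values that did not. In the authors' deposited table, 26 of the 45 transcripts of the MHC genes had a p-value, and the smallest was 0.132 with a q-value of 1.

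**Figure D4:**
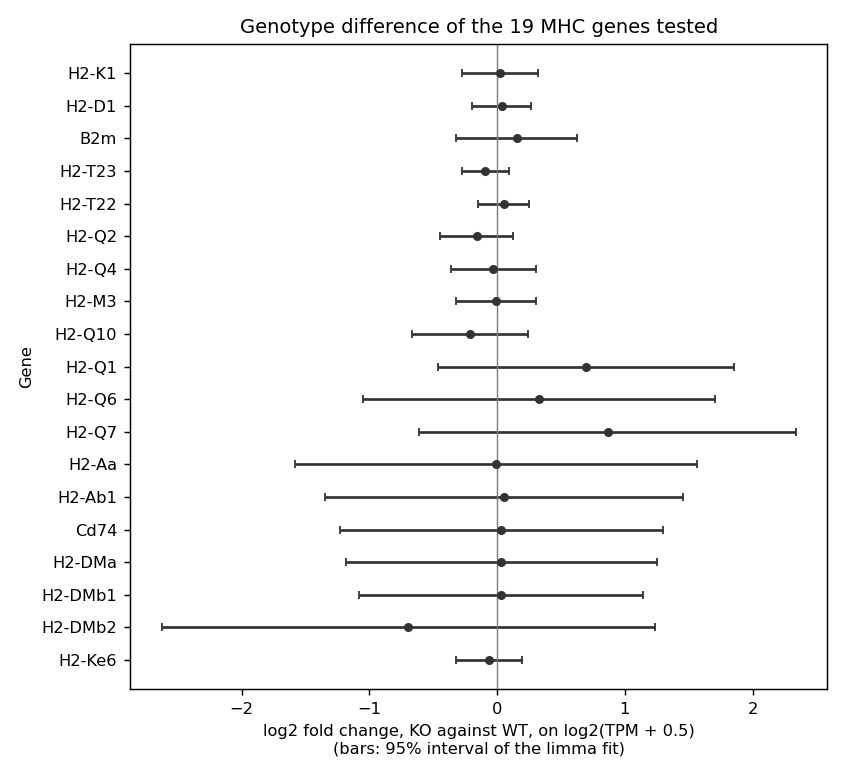
Log2 difference of KO against WT on log2(TPM + 0.5) (horizontal axis) for the 19 MHC genes tested (rows), as points with 95% intervals from the limma fit with cage as a term. Each interval included 0, and the intervals of class II genes, such as -1.58 to 1.57 for H2-Aa, were wider than that of H2-K1, -0.27 to 0.32.

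The precision of these comparisons differed between genes. For H2-D1, H2-K1, H2-T22 and H2-T23 the 95% intervals lay within -0.28 to 0.32 in log2. For H2-DMb2 the interval ran from -2.63 to 1.24 and for H2-Q7 from -0.61 to 2.34. By group, summed class II chains were 131 ± 94.4 TPM in WT and 132 ± 96.1 TPM in KO (SD). Summed classical class I was 919 ± 116 TPM for WT and 933 ± 135 TPM for KO. Summed non-classical class I was 264 ± 35.0 TPM in WT and 257 ± 27.8 TPM in KO.

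Cage was compared because mice shared cages across genotypes. With the limma F test on both cage terms, 0 of 19 MHC genes passed, against a background of 0% (no gene of 10756). At an unadjusted p under 0.05 it was 1 of 19, H2-T23, against a background of 12.1%. H2-T23 averaged 124 ± 3.56 TPM in cage A (4 mice), 152 ± 20.6 TPM in cage B (4 mice) and 141 ± 10.1 TPM in cage C (3 mice), with an adjusted limma p of 0.411.

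The genotype difference of class II genes went in different directions in different cages, without passing the test of that dependence. For H2-Aa, KO minus WT in log2 was 0.11 for cage A, -2.09 for cage B and 2.94 for cage C. Each genotype had 1 high and 1 low mouse in cage A. In cage B both WT mice were high and both KO mice low, and in cage C the only KO mouse was high and both WT mice low. For Cd74 the values were 0.03, -1.62 and 2.53 in the same order. For B2m they were 0.16, -0.43 and 1.02 in cages A, B and C, and for H2-K1 they were -0.15, -0.10 and 0.48.

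In the limma F test of genotype by cage, 0 of 19 MHC genes passed at FDR 0.05, against a background of 0.0186% (2 genes). At an unadjusted p under 0.05 there were 7 of 19, against a background of 3.97%. They were H2-DMb1, Cd74, H2-Ab1, H2-Aa, H2-Q6, B2m and H2-DMa, with unadjusted limma p-values between 0.000738 for H2-DMb1 and 0.0103 for H2-DMa. Their adjusted limma p-values ran from 0.438 upward. Genes that share high mice do not count as 7 separate results, and the cage C difference rests on KO-3, the library with the highest mitochondrial share. A dependence on cage and a trait of that mouse cannot be told apart. In cages B and C alone, chosen after the data were seen, the smallest adjusted interaction p of an MHC gene was 0.0516.

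The supply line of class I peptides showed no called change. Of 14 genes for peptide supply and loading, 13 were tested, 0 passed, and 5 were higher and 8 lower in KO by fitted value. Tapbpl, a tapasin relative that edits peptides, had a log2 difference of -0.22 ± 0.11 (SE) and Psme1, a proteasome activator subunit, 0.78 ± 0.46. Nlrc5, the class I transactivator, was below the filter, at or under 0.831 TPM in all mice. The inducible proteasome subunits Psmb8 and Psmb9 had unadjusted interaction p-values of 0.0193 and 0.0252 in limma, where 3.97% of all genes were under 0.05. The remaining inducible subunit, Psmb10, was at 0.138, and the adjusted limma p was 1.00 for all 3. Psmb8 was highest in KO-3 at 39.2 TPM and in WT-11 at 37.8 TPM.

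Of 11 symbols listed for class II antigen processing and its RFX factors, some of them older names of the same gene, 6 were tested, 0 passed, and 4 were higher and 2 lower. Ctsl and Ctss, cathepsins that cut the invariant chain, had log2 differences of 0.17 ± 0.09 and -0.07 ± 0.07 (SE). Ctss averaged 363 ± 42.5 TPM in WT and 337 ± 38.5 TPM in KO. Of 10 interferon gamma signalling genes, 8 were tested, 0 passed, and 3 were higher and 5 lower. Irf2 and Ifngr1 were at 0.21 ± 0.14 and -0.08 ± 0.07, and Ifng was listed at 0 in all mice.

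For the marker lists the counts were equally without calls. B cell markers had 2 of 9 tested, both lower by fitted value, Cd79a at -1.13 ± 0.93 and Cd79b at -0.50 ± 0.91. T cell markers had 2 of 9 tested, both higher, Trbc2 at 0.47 ± 0.83 and Trac at 0.48 ± 0.95, and none of 9 dendritic cell markers passed the filter. Macrophage markers had 7 of 10 tested, 2 higher and 5 lower, with Mrc1 at -0.27 ± 0.18 and C1qb at -0.31 ± 0.25. Epithelial markers had 9 of 9 tested, 4 higher and 5 lower, with Cdx2 at 0.43 ± 0.23 and Krt20 at -0.09 ± 0.14. Smooth muscle (5 of 7 tested), endothelial (5 of 8) and proliferation markers (5 of 5) were all higher by fitted value, with Acta2 at 0.14 ± 0.19 and Actg2 at 0.07 ± 0.19, Emcn at 0.73 ± 0.17 and Esam at 0.42 ± 0.23, and Rrm2 at 0.30 ± 0.17 and Pcna at 0.06 ± 0.07. None of these passed limma at FDR 0.05. Emcn had an unadjusted limma p of 0.00177, where 3.1% of all genes were under 0.05. Its KO values, from 1.86 TPM, lay above its WT values, which reached 1.81 TPM. Of all genes tested, 0.223% had values that did not overlap, and 46.8% were higher in KO by fitted value.

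Summed H2-K1 and H2-D1 were compared across the 11 mice with 3 class I partners. With B2m, Pearson's r was 0.686 (permutation p = 0.0193, adjusted over 3 pairs 0.0580) and Spearman's rho was 0.564 (permutation p = 0.0763, adjusted 0.229). Without KO-3 and WT-11, the mice farthest from the median of the sum, r was -0.07, so the relation was not seen among the other mice. Leaving out the farthest mice also narrows the range of the sum, which can lower r by itself. With cage means taken out, r was 0.719. With summed Tap1, Psmb8 and Psmb9, r was 0.576 (permutation p = 0.0663, adjusted 0.0994) and rho was 0.373 (permutation p = 0.262, adjusted 0.352), and r was -0.01 without the same mice. With Nlrc5, r was 0.462 (permutation p = 0.151, adjusted 0.151) and rho was 0.310 (permutation p = 0.352, adjusted 0.352), and r was 0.08 without those mice. Class II pairs had been planned but were given no pooled correlation because the mice fell into 2 groups, of 6 and 5. That choice was made after the values were seen, so the adjustment over 3 pairs covered fewer pairs than planned. Summed H2-K1 and H2-D1 also had a gap, a share of 0.390 of the log2 range, and were still correlated over all mice.

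Near-identical sequence limits how well some of these genes can be told apart. Of the 31-base words of a transcript, 53.0% of those of H2-Q6 and 52.6% of those of H2-Q7 also occurred in transcripts of other genes of GENCODE M21, and 24.9% and 27.5% of words of 75 bases, the read length. Summed, H2-Q6 and H2-Q7 were at 26.2 TPM in KO-1, 17.4 in KO-3 and 14.7 in WT-11, and between 1.56 and 10.5 TPM in the other mice. H2-T22 shared 63.8% of its 31-base words, most with H2-T10, and H2-DMb1 and H2-DMb2 shared 37.6% and 45.5%, most with each other. H2-K1 shared 23.4% and H2-D1 27.5%, but 1.55% and 6.90% at read length. B2m, H2-Aa, H2-DMa, H2-Oa and H2-Ob shared none, and H2-Ab1 0.592%. H2-T23 shared 48.7%, H2-Q4 43.5% and H2-Q1 33.25%, and 13.1%, 7.91% and 17.28% at read length. The levels of H2-Q1, H2-Q6, H2-Q7, H2-T22, H2-T23, H2-Q4 and the DM beta chains are therefore uncertain as separate genes. Those of B2m, H2-Aa and H2-DMa are not affected in this way.

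**Figure D5:**
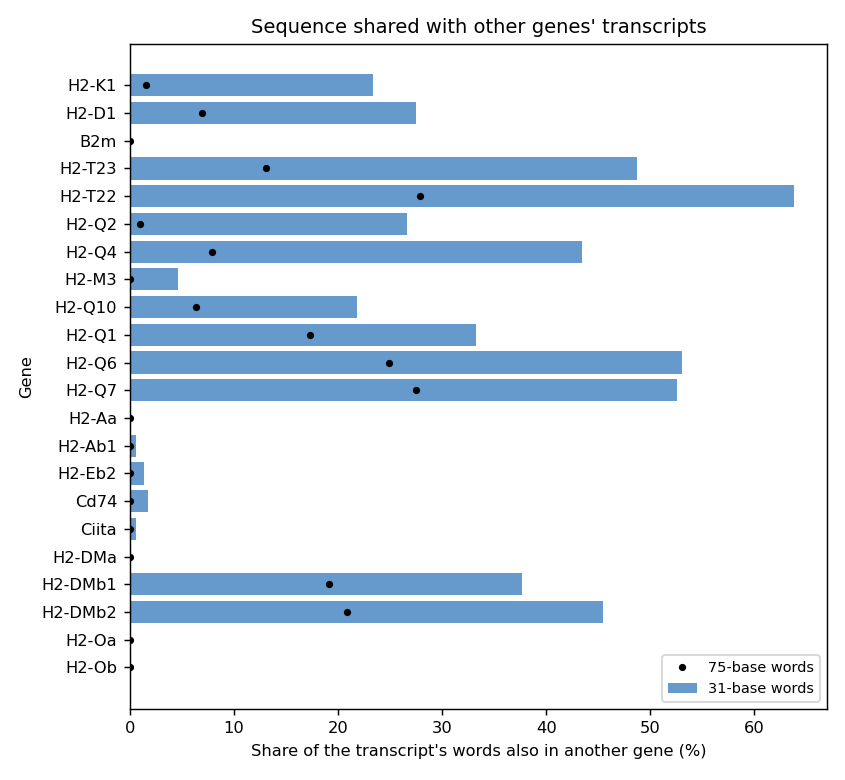
Share of a transcript's 31-base words (bars) and 75-base words (points) that also occur in another gene's transcripts, in percent (horizontal axis), for MHC genes (rows), by the transcript that shares most. H2-T22, H2-Q6 and H2-Q7 shared more than 50% of 31-base words, and H2-Aa, H2-DMa, H2-Oa, H2-Ob and B2m shared none.

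H2-Ke6 carries the H2 prefix because of its place in the complex and encodes a steroid dehydrogenase. It averaged 35.7 ± 4.06 TPM (SD, n = 6) in WT and 34.6 ± 5.10 TPM (SD, n = 5) in KO, with a log2 difference of -0.07 ± 0.12 (SE). Of its 31-base words, 88.3% were shared with Gm20427, so its level cannot be separated from that gene model.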

How the data were processed

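RNA libraries of 11 mice (stranded, single-end reads of 75 bases) were processed by the authors with CASAVA, kallisto and sleuth on mm10, per the submitters' processing notes. No source used here gives their versions. The deposited table gives TPM per principal transcript and mouse, per the file headers, and columns summed to between 558446 and 770986. It also holds the authors' deposited p-value and q-value, log2 ratio, natural log mean and variance terms, and likelihood-ratio score for their genotype test.

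From 29213 rows, 405 repeated rows were dropped. TPM were summed per gene, and limma 3.58.1 (R 4.3.3) was fitted to log2(TPM + 0.5) with a mean-variance trend, a cage term and a genotype term. Benjamini-Hochberg adjustment covered the 10756 genes that reached 1 TPM in 5 or more mice. Interaction and cage used F tests. The fold change understates changes of low genes. Whether the mice came from separate litters is not given. The limma p-values set a fitted difference against the spread between these mice that the model left over. The test was tested on simulated data. All tested MHC genes were named, and of other lists the 2 tested genes with the smallest p. The members and lists were chosen with earlier results of these data known. One planned class II gene is not analysed here. Correlations used 100000 permutations. Promoters came from RefSeq GRCm38.p6 and transcripts and coordinates from GENCODE M21 (GRCm38). Alternatives were another pseudocount, filter, scaling, transcript rule, model and mouse set.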

Additional observations from a re-analysis of the deposited data

Results flagged for a closer look

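For 23 genes, each genotype was searched for a mouse far from the others by Dixon's ratio of the gap to the group's range. Such a mouse was found in 6 of the 23 groups of 5 KO mice (ratio above 0.71). It was found in 0 of the 23 groups of 6 WT mice. Chance gives such a mouse in about 1 of 20 groups where values are normally distributed, which was not tested for these TPM. The ratio finds a lone mouse, and WT-2, WT-7 and WT-11 were high together for class II genes. The counts of the genotypes therefore cannot be compared for those genes. B2m in KO-3 was at 848 TPM, with a ratio of 0.902. KO-1 stood above the other KO mice for H2-DMb2 (19.2 TPM, ratio 0.919), H2-Eb2 (1.83 TPM, ratio 0.879), H2-Oa (7.93 TPM, ratio 0.904) and H2-Ob (8.61 TPM, ratio 0.983). H2-T22 in KO-8 was the lowest KO value, at 31.4 TPM with a ratio of 0.711. The KO-1 genes vary together, so these are not 4 separate observations. KO-1 also had the highest B cell marker sum, 98.7 TPM, and their part in the result was not tested.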

How the results depend on the processing

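No MHC gene was called for genotype or cage under any alternative, and the smallest adjusted limma p-values of the 19 genes over these alternatives were 0.848 for genotype, 0.362 for cage and 0.0516 for the interaction. Of the 19 genes, 7 kept the sign of the genotype difference in every alternative that gave a value and 12 did not. The 4 genes called for genotype over all genes became 2 with no filter and 1 in cages B and C only. Leaving out 1 mouse gave 2 to 4. The 0 genes called for cage became 4 with no filter and 0 to 2 with 1 mouse left out. The 2 interaction genes became 12 with pseudocount 0.1, 49 of 18070 with no filter and 1 with a filter of 5 TPM. They became 1 in cages B and C only, and 0 to 5 with 1 mouse left out. With no filter, 1 of 30 MHC genes was called for the interaction, H2-T3. H2-T3 was listed at 0 in 9 of 11 mice, at 0.0737 TPM in WT-2 and at 0.522 TPM in KO-3. That call therefore rests on values near 0 and on the single KO mouse of cage C. The log2 difference turned sign for Cd74 (-0.0013) and H2-T22 (-0.089) with the most abundant transcript only, for H2-Aa with median-of-ratios scaling (0.0050), without mitochondrial genes (0.020) and without the cage term (0.081), and for H2-M3 under the same settings (0.0042, 0.018 and 0.017). With 1 mouse left out, the range was -0.13 to 0.28 for B2m, -0.80 to 0.43 for Cd74, -0.99 to 0.39 for H2-Aa, -0.88 to 0.38 for H2-Ab1, -0.055 to 0.11 for H2-D1, -0.73 to 0.34 for H2-DMa, -0.75 to 0.28 for H2-DMb1, -0.13 to 0.12 for H2-K1, -0.084 to 0.082 for H2-M3, -0.18 to 0.075 for H2-Q4 and -0.41 to 0.66 for H2-Q6. The lows of H2-Aa, H2-Ab1, Cd74, H2-DMa and H2-DMb1 came without KO-3. Without a change of sign, the range was -1.43 to -0.09 for H2-DMb2, 0.12 to 1.35 for H2-Q7 and 0.18 to 0.97 for H2-Q1. The correlation of H2-K1 and H2-D1 ranged from 0.444 to 0.813 with B2m, 0.290 to 0.684 with Nlrc5 and 0.417 to 0.894 with Tap1, Psmb8 and Psmb9. Without 2 mice it was -0.065 with B2m and -0.010 with Tap1, Psmb8 and Psmb9, and the latter was 0.648 without mitochondrial genes and 0.676 with cage means taken out. The cause of these changes was not tested. No paired analysis was possible because the genotypes share no replicate numbers. Cage, which they do share, was a term in the fits. Read depth is unknown, which limits what can be said of genes near 0.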
